A study of Saccharomyces cerevisiae with 11 samples.

Results

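RNA-Seq of mother cells of budding yeast at about 20 divisions (Aged) was compared with that of mothers at about 10 divisions (Middle). The comparison takes 4 of the 11 libraries of the series, 2 per age, and all 6668 coding sequences counted in them. All cells were of the diploid strain BY4743, which carries both mating types (MATa/MATα), is homozygous for his3Δ1, leu2Δ0 and ura3Δ0 and heterozygous for lys2Δ0 and for met15Δ0. They grew in synthetic dextrose medium with casamino acids, glucose and mannose at 25 °C. Middle cells were biotin-labelled mothers taken from a batch culture after 13 h. Aged cells were such mothers kept for a further 24 h in a miniature chemostat, the MAD, where a magnet holds bead-bound mothers and flowing medium washes daughters out. Handling before harvest differed too. Middle cells were suspended in PBS and rotated with beads at room temperature, and Aged cells were washed in growth medium on the magnet. The paper states that the numbers of centrifugations and PBS washes were kept alike. The step from Middle to Aged therefore joins about 10 more divisions, 24 h more time, a change of vessel and this handling, which cannot be told apart here. Young cells (2 libraries), the unlabelled cells left in the supernatant of the batch culture, give a reference level, and 3 ribosome footprint libraries (1 Aged, 2 Middle) give a second readout.

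A yeast mother divides a limited number of times, and each division buds off a daughter that starts again with a full lifespan. Much of the messenger RNA of a growing cell encodes ribosomal proteins, which are switched on and off together through Rap1, Ifh1 and Sfp1 under the nutrient kinases TOR and PKA. Heat-shock and stress genes, driven by Hsf1 and by Msn2 and Msn4, usually move the other way, and the synthesis of phospholipids, lysine and iron carriers is set by dedicated factors that sense each product.

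The deposited counts summed to 536622 and 1430018 in Aged replicates 1 and 2 and to 476704 and 1314399 in Middle replicates 1 and 2, so that 3 counts correspond to between 2.10 and 6.29 CPM (counts-per-million units). TAR1, an open reading frame antisense to the ribosomal RNA genes, took 1.42 to 5.14% of the counts of these libraries. The defining haploid markers (STE2, STE3, the pheromone genes and others, 8 in all) summed to 9 to 42 counts per library and none passed the filter on low counts. URA3, which the labelled genotype lacks, had 43 and 185 counts in Aged and 36 and 146 in Middle cells. LEU2 had 22 and 69 counts in Aged and 16 and 31 in Middle cells, and the genotype lacks it too. The 8 markers of newborn daughters (DSE1 to DSE4, SCW11, CTS1, EGT2 and AMN1) were all detected in every library and summed to 1490.9 and 1470.2 CPM in Aged against 1068.1 and 592.5 CPM in Middle cells. Their part in the results that follow was not tested. In bulk RNA, fewer cells of a type and less RNA per cell cannot be told apart.

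edgeR's quasi-likelihood test was applied to the 5674 coding sequences with enough counts, with Benjamini-Hochberg adjustment over all of them and a threshold of 0.05. It called 270 genes higher in Aged than in Middle cells (4.76%) and 170 lower (3.0%). The 2 Aged levels of each of these 440 genes (7.75%) lay outside the range of the 2 Middle levels. The called genes had a median absolute log2 fold change of 1.85, and the median over all tested genes was 0.01. Of the 270 higher genes, 122 encode cytosolic ribosomal proteins and 148 do not. The 148 include 11 Ty copies and 19 open reading frames not matched in the reference. Some of these may share reads with other copies or with a neighbouring gene. Levels are CPM scaled by TMM, a factor that evens out composition, over the 6 RNA libraries. Fold changes are log2 of Aged over Middle with their standard error (SE), and each adjusted p is from this edgeR test. Of the called genes, 87 of the higher and 16 of the lower ones were called whichever of the 4 libraries was left out, and without Aged replicate 2 the counts of calls were 121 higher and 23 lower, and without Middle replicate 2 they were 97 and 74. No called gene changed direction in any of the alternatives tried.

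**Figure D1:**
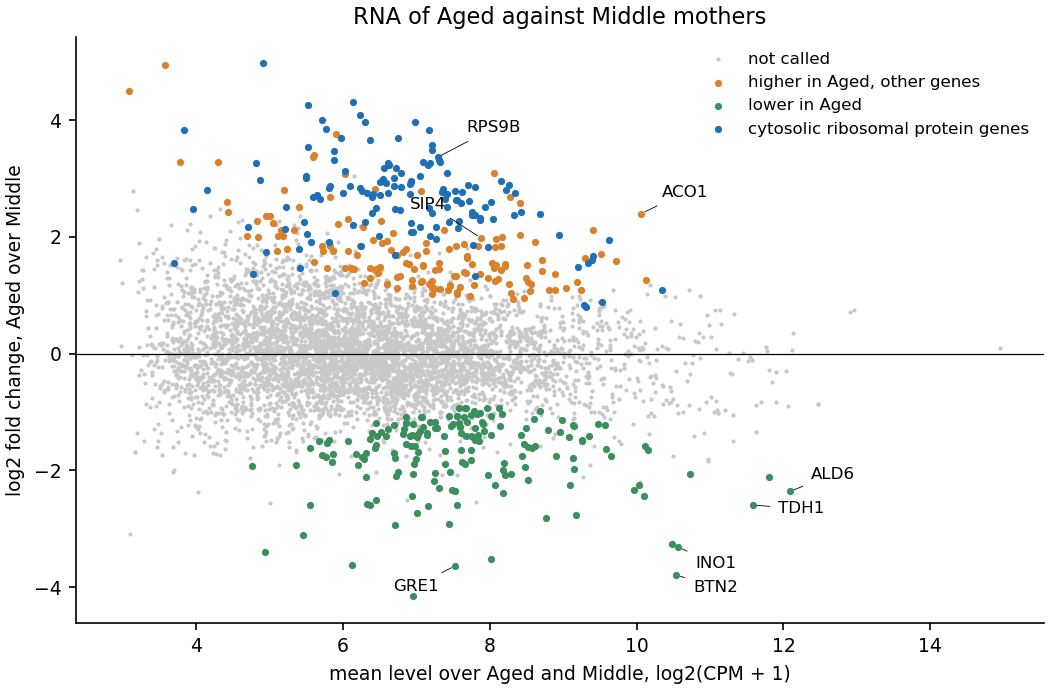
Log2 fold change of RNA, Aged over Middle, against the mean level of both ages as log2(CPM + 1), 1 point per tested gene. Ribosomal protein genes (blue) all lie above 0, other genes called higher are orange, genes called lower are green, and BTN2, INO1 and GRE1 are among the lowest points.

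Ribosomal protein genes rose as a group. All 137 were tested, 122 were called higher (4.76% of all tested genes were) and none lower, and both Aged levels were above both Middle levels for every one. Their median log2 fold change was 2.71, with a range of 0.80 to 4.97, beside a median of 0.01 for all genes. Summed over the 137 genes, the level was 36137 and 37918 CPM in Aged cells, 11067 and 6396 CPM in Middle cells, and 13874 and 7125 CPM in Young cells. Aged cells thus stood above both other ages, while the Young and Middle sums overlapped. As a share of all counts these genes took 3.56 and 4.18% in Aged, 0.974 and 0.684% in Middle and 1.29 and 0.751% in Young libraries. The share was small at every age, and why was not tested. RPL6A, a protein of the large subunit, was at 284 and 289 CPM in Aged, 33.4 and 26.3 CPM in Middle and 91.1 and 24.6 CPM in Young cells. Its log2 fold change was 3.32 ± 0.28 (SE, edgeR adjusted p = 0.00133). RPS9B, which encodes a protein needed for accurate decoding in the small subunit, was at 250 and 317 CPM in Aged and 26.2 and 28.5 CPM in Middle cells, a log2 fold change of 3.36 ± 0.29 (edgeR adjusted p = 0.00133). For both genes the replicates of Aged and of Middle cells were close and these ages far apart. The Young levels of RPL6A lay far apart and spanned both Middle levels. RPS15, near the decoding site, was at 313 and 220 CPM in Aged and 21.5 and 17.1 CPM in Middle cells, a log2 fold change of 3.84 ± 0.34 (edgeR adjusted p = 0.00133). RPS27B was at 140 and 140 CPM in Aged and 7.15 and 8.54 CPM in Middle cells, and RPL42A was at 121 and 143 CPM in Aged and 7.15 and 6.4 CPM in Middle cells. Their log2 fold changes of 4.10 ± 0.38 and 4.31 ± 0.40 were among the largest of the list and rest on 3 to 12 counts per Middle library. Of the 122 called genes, 71 were called whichever library was left out. Without Aged replicate 2, 81 of 134 tested were called, and without Middle replicate 2, 74 of 137.

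Rap1, the activator that sits in front of most ribosomal protein genes, binds variants of CCNTACA, where N is any base. These letters, chosen for this list after its values were seen, occurred on either strand within 500 bases before the start codon of 81 of the 137 genes (59.1%), and in 15.9% of the 5984 promoters searched. Of the 122 called genes, 75 had a match. The shorter Rap1 core ACCCA, taken with the lists, was in 70.8% of these promoters and 43.9% of all. The stretches below surround the match nearest to the start codon in 5 of the genes with the smallest p, to show the letters in place. They were selected to hold the match, so what they share is set by that choice. They are in the R64 assembly of RefSeq, 5′ to 3′ on the strand of the gene, with the match (CCNTACA, or TGTANGG where it lies on the other strand) in capitals.
RPL6A, chrXIII:124491-124513, minus strand: tattaaaaTGTATGGatttgtta
RPS9B, chrII:604281-604303, plus strand: gatttaatCCGTACAtttacaca
RPS7A, chrXV:505582-505604, plus strand: tagactacTGTATGGcagttgct
RPL20B, chrXV:901534-901556, minus strand: ctgttcacCCGTACAttttacgt
RPL42A, chrXIV:330946-330968, plus strand: tcttacatCCTTACAtctaaagt
RPS24A, whose RNA had a log2 fold change of 3.69 ± 0.34, had no match in its window. A match is a description of the sequence and not evidence of binding.

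The ribosomal protein genes did not all move by the same amount. Median log2 fold changes were 2.66 for 76 genes of the large subunit (67 called), 2.78 for 56 genes of the small subunit (52 called) and 2.17 for 5 genes of the stalk (3 called). Of 59 pairs of paralogs, 50 had both members called, 8 had one and 1 had none. The partners differed by a median of 0.46 on the log2 scale, and 49 pairs by less than 1. RPP1B had the largest fitted value of the list (4.97), but it rests on 1 and 2 counts in Middle cells, and its partner RPP1A had 2.31 ± 0.39 from 117 and 65.4 CPM in Middle to 565 and 305 CPM in Aged cells. The 15 genes that were not called had log2 fold changes of 0.80 to 2.49 and adjusted p of 0.0526 to 0.233. Among them were some of the members with the highest CPM, a level that is not corrected for length. RPL3, at the peptidyl transferase centre, was at 2014 and 1518 CPM in Aged and 1101 and 565 CPM in Middle cells (log2 fold change 1.09 ± 0.39, edgeR adjusted p = 0.124). RPL4B was at 887 and 720 CPM against 644 and 287 CPM, and RPS20 at 633 and 956 CPM against 563 and 341 CPM. In these 3 genes the ages did not overlap, but the 2 Middle libraries lay far apart. RPP0, the base of the stalk, had 1.55 ± 0.41 (edgeR adjusted p = 0.0527). The 10 members with the highest level in Young cells had a median log2 fold change of 1.51 and 4 calls, and the other 127 had 2.75 and 118 calls. Across the 137 genes, which share libraries and are not independent replicates, Pearson's r of log2(Young CPM + 1) with the fold change was -0.46. Summing the paralogs gave 78 components, of which 70 were called, with a median of 2.62 and a lowest value of 0.84. Short coding sequences did not rise in general: outside this list, median log2 fold changes in 7 classes of counted length lay between -0.05 and 0.03. Within the list the longer genes rose less. From the shortest class on, 33, 57 and 40 genes had medians of 2.64, 2.86 and 2.54, with 27, 54 and 39 called. The next class held 4 genes with a median of 1.82 (2 called). The 3 genes of the longest class had 0.89, and none was called. Whether the smaller rise goes with length or with level was not tested.

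**Figure D2:**
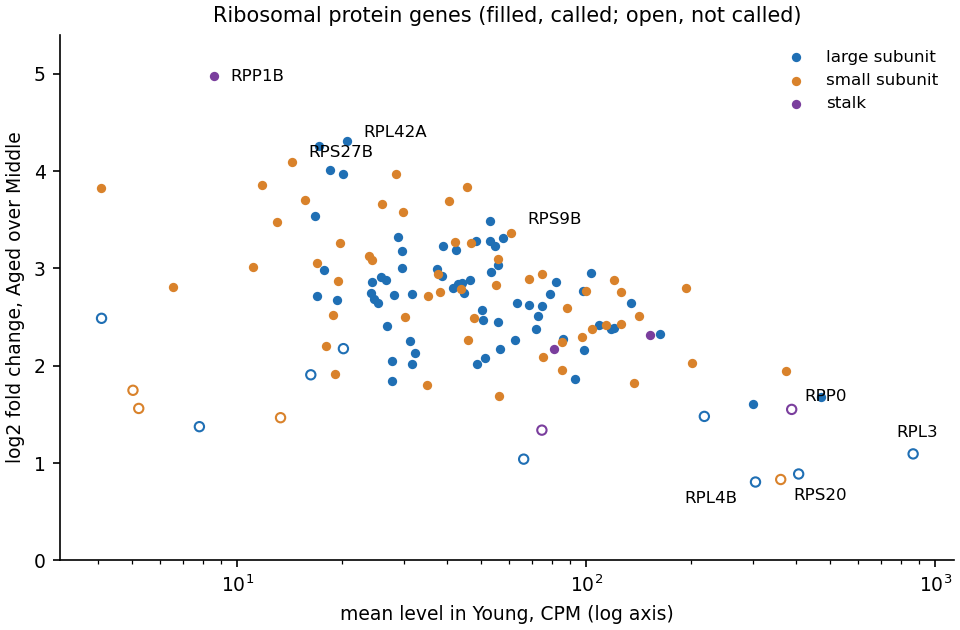
Log2 fold change of the 137 ribosomal protein genes, Aged over Middle, against their mean level in the 2 Young libraries in CPM (log axis), coloured by large subunit, small subunit and stalk. CPM is not corrected for length. Filled points passed the test and open points did not; the 10 members with the highest Young level had a median of 1.51 and the others 2.75.

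Fewer genes were called in other parts of the translation machinery. Of 68 tested ribosome biogenesis factors, which make and export ribosomal subunits, 5 were called higher (4.76% of all tested genes were) and none lower. All 68 had a positive log2 fold change, with a median of 1.15. NOP7, needed for the large subunit, was at 287.96 and 254.6 CPM in Aged and 33.4 and 81.8 CPM in Middle cells (2.13 ± 0.36, edgeR adjusted p = 0.00845). NOP56, a core protein of the particles that methylate ribosomal RNA, was at 208 and 423 CPM in Aged and 69.1 and 100 CPM in Middle cells (1.88 ± 0.37, edgeR adjusted p = 0.0157). The list's sum was 4111 and 8802 CPM in Aged and 1640 and 3625 CPM in Middle cells, so replicate 2 was the higher one at both ages. The list's calls turned on single libraries: 24 factors were called without Aged replicate 1 (median 1.6), none without Aged replicate 2 (0.39), 1 without Middle replicate 1 (0.89) and 2 without Middle replicate 2 (2.14). RPA190, the largest subunit of RNA polymerase I, which transcribes ribosomal RNA, was at 309 and 495 CPM in Aged, 103 and 174 CPM in Middle and 469 and 370 CPM in Young cells (1.52 ± 0.33, edgeR adjusted p = 0.0263). Its Aged level was above Middle and overlapped that of Young cells. NOP7 lost its call only without Aged replicate 2, and NOP56 and RPA190 kept theirs only without Aged replicate 1.

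Of 36 initiation and elongation factors, 7 were called higher (4.76% of all tested genes were) and none lower, with a median of 0.76 and no negative value. TEF4, a subunit of the factor that recycles elongation factor 1A, was at 438 and 384 CPM in Aged and 167 and 141 CPM in Middle cells (1.43 ± 0.24, edgeR adjusted p = 0.00864). SUI3, a subunit of the factor that delivers the initiator tRNA, was at 180 and 219 CPM against 76.3 and 66.9 CPM (1.51 ± 0.27, edgeR adjusted p = 0.0107). TEF1, the very abundant elongation factor 1A, was at 10933 and 9024 CPM against 6804 and 5062 CPM and did not pass the test (0.76 ± 0.41, edgeR adjusted p = 0.278). SSB1 and SSB2, the HSP70 chaperones that sit on the ribosome and fold new chains, rose together. SSB1 was at 1112 and 1125 CPM in Aged, 370 and 318 CPM in Middle and 841 and 595 CPM in Young cells (1.71 ± 0.28, edgeR adjusted p = 0.0068). SSB2 was at 964 and 941 CPM in Aged and 308 and 308 CPM in Middle cells (1.64 ± 0.26, edgeR adjusted p = 0.00677), and as near-identical copies the pair may share reads. Without Middle replicate 2 neither was called, nor were TEF4 and SUI3, while SSB2 lost its call also without Middle replicate 1 and SUI3 without Aged replicate 2. Of the 36 factors, 8 and 1 were called without Aged replicates 1 and 2, and 3 and none without Middle replicates 1 and 2.

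In gluconeogenesis and the citric acid cycle every gene called in the main test was higher. Of 18 genes of gluconeogenesis and the glyoxylate cycle, 6 were called higher (4.76% of all tested genes were) and none lower, with a median of 0.61. SIP4, a zinc-cluster activator of gluconeogenic genes, was at 371 and 376 CPM in Aged, 100 and 91.0 CPM in Middle and 43.9 and 16.9 CPM in Young cells (1.98 ± 0.24, edgeR adjusted p = 0.00226). IDP2, the cytosolic isocitrate dehydrogenase that makes NADPH, was at 502 and 593 CPM in Aged, 117 and 149 CPM in Middle and 16.9 and 33.0 CPM in Young cells (2.03 ± 0.26, edgeR adjusted p = 0.00247). For both, no level of one age reached that of another. SFC1, a mitochondrial carrier of succinate and fumarate, was at 350 and 573 CPM against 73.9 and 149 CPM (2.00 ± 0.37, edgeR adjusted p = 0.0120). MLS1 and ICL1, the malate synthase and isocitrate lyase of the glyoxylate cycle, had log2 fold changes of 1.59 ± 0.34 and 1.26 ± 0.30, and PCK1, which makes phosphoenolpyruvate, 1.08 ± 0.26. FBP1, the last step of gluconeogenesis on its own branch, was at 75.8 and 135 CPM against 73.9 and 79.0 CPM, so its ages overlapped. CAT8, the activator upstream of SIP4, was at 841 and 428 CPM in Aged and 1016 and 690 CPM in Middle cells (-0.42 ± 0.38, edgeR adjusted p = 0.522). ADR1, a member of the list, was below both Middle levels in both Aged libraries and just missed the threshold (-1.38 ± 0.36, edgeR adjusted p = 0.0527). With library totals, no filter, a minimum of 10 counts in every library, DESeq2 or the replicate block, 1 gene of the list was called lower. YAT1, a carnitine acetyltransferase, was at 913 and 453 CPM against 250 and 277 CPM (1.37 ± 0.35, edgeR adjusted p = 0.0498) and was called in 1 of the 4 fits with a library left out and not with DESeq2's size factors. SFC1 lost its call without Aged replicate 2 or Middle replicate 1. MLS1 and PCK1 lost theirs without any one library but Aged replicate 1, and ICL1 in each such fit.

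In the citric acid cycle, 3 of 22 genes were called higher (4.76% of all tested genes were) and none lower, with a median of 0.56. ACO1, mitochondrial aconitase, an iron-sulfur enzyme, was at 1946 and 1649 CPM in Aged, 238 and 439 CPM in Middle and 182 and 311 CPM in Young cells. Its log2 fold change of 2.40 ± 0.37 (edgeR adjusted p = 0.00533) was the largest of the list, and it made one of the 5 largest gains in CPM of all genes. IDH1 and IDH2, the subunits of the NAD-dependent isocitrate dehydrogenase that follows aconitase, rose too (1.30 ± 0.25 and 1.41 ± 0.28). IDH1 was at 542 and 476 CPM in Aged and 222 and 194 CPM in Middle cells. PET9, the main carrier that exchanges ADP and ATP across the inner mitochondrial membrane, was at 1211 and 992 CPM in Aged and 210 and 298 CPM in Middle cells (2.11 ± 0.31, edgeR adjusted p = 0.00391). None of 24 tested genes of respiratory complexes III and IV was called, and their median was 0.40. SIP4, IDP2, ACO1 and PET9 were called whichever library was left out, while IDH1 and IDH2 were called only in the fit without Aged replicate 1.

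In inositol and phospholipid synthesis every gene called in the main test was lower. Of 22 genes of fatty acid and phospholipid synthesis, 7 were called lower (3.0% of all genes were) and none higher, while 15 were not called and 8 of the 22 had a positive value. The median was -0.79. INO1, inositol-3-phosphate synthase, makes the precursor of inositol lipids. It was at 350 and 205 CPM in Aged, 2670 and 2848 CPM in Middle and 4616 and 4362 CPM in Young cells, and fell by 3.32 ± 0.39 on the log2 scale (edgeR adjusted p = 0.00192). Its 3 ages did not overlap. INO2 and INO4 encode the 2 partners of the activator of INO1. INO2 was at 24.6 and 38.7 CPM in Aged, 265 and 182 CPM in Middle and 220 and 177 CPM in Young cells (-2.73 ± 0.34, edgeR adjusted p = 0.00229). INO4 was at 32.2 and 48.9 CPM in Aged, 193 and 153 CPM in Middle and 211 and 170 CPM in Young cells (-2.02 ± 0.32, edgeR adjusted p = 0.00663). Both were low in the Aged libraries only, with Middle and Young levels overlapping. OPI1, the repressor that holds Ino2 and Ino4 in check, fell too, from 315 and 334 CPM to 106 and 101 CPM (-1.65 ± 0.24, edgeR adjusted p = 0.00369). ITR1, the main inositol transporter, was at 619 and 475 CPM in Aged and 1423 and 2024 CPM in Middle cells (-1.65 ± 0.33, edgeR adjusted p = 0.0181). OPI3, which methylates phosphatidylethanolamine, was at 358 and 150 CPM against 796 and 938 CPM (-1.79 ± 0.40, edgeR adjusted p = 0.0299), and CKI1, choline kinase, at 218 and 161 CPM against 384 and 386 CPM (-1.03 ± 0.25, edgeR adjusted p = 0.0415). CHO1, phosphatidylserine synthase, was at 549 and 414 CPM against 920 and 1132 CPM (-1.09 ± 0.29, edgeR adjusted p = 0.0569). FAS1, a subunit of fatty acid synthase, was at 2374 and 2532 CPM against 2551 and 2353 CPM, so its ages overlapped (0.01 ± 0.32). INO1, INO2 and INO4 were called whichever library was left out. OPI1 lost its call without Aged replicate 2, ITR1 without either replicate 2, and OPI3 and CKI1 without any one library but Aged replicate 1. The list then held 3 calls without Aged replicate 2 and 4 without Middle replicate 2.

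The dimer of Ino2 and Ino4 binds CATGTGA, known as the inositol-sensitive element. It occurred on either strand within 500 bases before the start codon of 11 of the 22 listed genes (50%) and of 3.78% of the 5984 promoters searched, and in 5 of the 7 genes called lower. The share describes the list and not the step from Middle to Aged. The stretches around the match nearest to the start codon are shown for the 5 called genes with a match and for CHO1 and CHO2, which were not called. They are in R64, on the strand of the gene, with CATGTGA or its complement TCACATG in capitals.
INO1, chrX:136098-136120, minus strand: tatttaatTCACATGgagcagag
INO2, chrIV:699598-699620, minus strand: acaacacaCATGTGAattttttt
INO4, chrXV:111994-112016, minus strand: caaaatatTCACATGtttttctc
ITR1, chrIV:1445674-1445696, minus strand: ccccaccgCATGTGAaaaaagct
CKI1, chrXII:408243-408265, plus strand: tataatatTCACATGgtgctcta
CHO1, chrV:208620-208642, minus strand: ttgagcttTCACATGgacccatc
CHO2, chrVII:802165-802187, plus strand: tcccttctCATGTGAagagttca
OPI1 and OPI3 had no exact match in this window, and both were called lower. CHO2, the first methyltransferase of the pathway, was at 659 and 343 CPM in Aged and 856 and 1317 CPM in Middle cells (-1.12 ± 0.38, edgeR adjusted p = 0.111).

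Cytosolic heat-shock genes fell in part. Of 27 tested, 5 were called lower (3.0% of all tested genes were). The 2 called higher (4.76% of all) were SSB1 and SSB2, whose levels are given above and which are not induced by heat. The list's median was -0.78. BTN2, which sorts misfolded proteins into deposits, was at 275 and 130 CPM in Aged, 4454 and 1103 CPM in Middle and 2184 and 668 CPM in Young cells (-3.79 ± 0.68, edgeR adjusted p = 0.0110). SSA4, the stress-induced HSP70, was at 254 and 285 CPM in Aged, 3719 and 1474 CPM in Middle and 911 and 370 CPM in Young cells (-3.26 ± 0.48, edgeR adjusted p = 0.00419). FES1, an exchange factor of HSP70, was at 159 and 135 CPM against 1516 and 496 CPM in Middle and 476 and 275 CPM in Young cells (-2.77 ± 0.50, edgeR adjusted p = 0.0107). In all 3 genes Middle replicate 1 was the highest library and both Aged libraries were below both Young ones. HSP104, the disaggregase that pulls proteins out of aggregates, was at 1559 and 1117 CPM in Aged and 8299 and 3328 CPM in Middle cells (-2.12 ± 0.50, edgeR adjusted p = 0.0354). HSP26, a small heat-shock protein, was at 49.3 and 82.5 CPM against 403 and 167 CPM (-2.02 ± 0.44, edgeR adjusted p = 0.0263). The HSP90 gene HSP82 was at 1002 and 781 CPM against 4535 and 1719 CPM and just missed the threshold (-1.81 ± 0.48, edgeR adjusted p = 0.0533). Summed, the 30 listed genes were at 17262 and 14931 CPM in Aged, 51100 and 22097 CPM in Middle and 32941 and 16941 CPM in Young cells. The spread between the 2 Middle libraries was large, and no gene of the list was called lower without Aged replicate 2, 3 were without Middle replicate 1 and 6 without Middle replicate 2. SSA4, BTN2 and FES1 lost their call only without Aged replicate 2. HSP26 lost its own also without Middle replicate 1, and HSP104 kept its call only without Aged replicate 1.

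Hsf1 binds inverted repeats of nGAAn, of which TTCNNGAA is one unit pair. These letters, chosen after the values were seen, occurred within 500 bases before 22 of the 30 genes (73.3%), in 21.2% of all promoters searched, and before all 5 called lower. Here too the share describes the list and not the step from Middle to Aged. The stretches nearest to the start codon show the repeat in capitals, in R64 and on the strand of the gene.
SSA4, chrV:364328-364351, plus strand: gaagtacaTTCTAGAAgttcctag
HSP26, chrII:381668-381691, plus strand: tgcttgatTTCTAGAAagatcgat
HSP104, chrXII:88323-88346, plus strand: ccagaattTTCTAGAAgggttatt
BTN2, chrVII:772367-772390, plus strand: ttttcttcTTCTTGAAagaaatat
FES1, chrII:444844-444867, minus strand: ctggaatcTTCTGGAAgttttttg

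Folding genes of the endoplasmic reticulum fell in a few members. Of 26 tested, 5 were called lower (3.0% of all tested genes were) and none higher, with a median of -0.73. JEM1, an ER co-chaperone of HSP70, was at 18.9 and 29.8 CPM in Aged, 186 and 112 CPM in Middle and 189 and 124 CPM in Young cells (-2.51 ± 0.40, edgeR adjusted p = 0.00618). KAR2, the HSP70 of the ER lumen, was at 589 and 717 CPM in Aged, 3591 and 1854 CPM in Middle and 3868 and 2851 CPM in Young cells (-2.05 ± 0.40, edgeR adjusted p = 0.0161). LHS1 and SIL1, which exchange the nucleotide of Kar2, had log2 fold changes of -1.40 ± 0.26 and -1.29 ± 0.29, and HRD1, the ubiquitin ligase of ER-associated degradation, -0.93 ± 0.23. Each of these was lower in both Aged libraries than in both Middle ones. HAC1, the transcription factor of the unfolded protein response, was at 934 and 873 CPM against 691 and 663 CPM and was not called (0.42 ± 0.27, edgeR adjusted p = 0.365). The counts do not show how much of the HAC1 RNA was spliced. PDI1, which forms disulfide bonds, was at 930 and 690 CPM against 1235 and 967 CPM (-0.44 ± 0.31, edgeR adjusted p = 0.412). JEM1 was called whichever library was left out, KAR2 and LHS1 lost their call without Aged replicate 2 or Middle replicate 1, and SIL1 and HRD1 in each such fit. The list held 1 call without Aged replicate 2 or Middle replicate 1 and 3 calls without either other library.

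Amino acid genes under Gcn4 were called in both directions. Of 49 tested, 6 were called lower and 5 higher (3.0 and 4.76% of all tested genes were). The median was 0.10, and it was -0.10 without Middle replicate 2. Of the 6 lower genes, 5 belong to lysine synthesis. LYS9, a saccharopine dehydrogenase, was at 265 and 174 CPM in Aged, 784 and 687 CPM in Middle and 128 and 182 CPM in Young cells (-1.75 ± 0.30, edgeR adjusted p = 0.00834). LYS4, homoaconitase, was at 106 and 125 CPM in Aged, 372 and 281 CPM in Middle and 116 and 184 CPM in Young cells (-1.47 ± 0.26, edgeR adjusted p = 0.0100). Middle cells were the high group in both, and Aged overlapped Young cells for LYS9 and LYS4 alike. LYS12, LYS21 and LYS2 fell too (-1.55 ± 0.30, -1.60 ± 0.37 and -1.63 ± 0.39), and LYS2 is present on 1 of its 2 chromosomes in this strain. LYS20, the isozyme of LYS21 that is close to it in sequence, and LYS1, the last step, had -1.55 ± 0.40 and -1.60 ± 0.44 and missed the threshold (edgeR adjusted p = 0.0507 and 0.0588). The sixth lower gene was ARG4 (-1.43 ± 0.29), the last step of arginine synthesis. The higher genes included ILV3 and ILV5, consecutive steps of branched-chain amino acid synthesis. ILV3 was at 366 and 350 CPM in Aged and 100 and 99.6 CPM in Middle cells (1.85 ± 0.24, edgeR adjusted p = 0.00254), and ILV5 at 402 and 830 CPM against 155 and 174 CPM (1.91 ± 0.36, edgeR adjusted p = 0.0130). ARG3, ornithine carbamoyltransferase, was at 114 and 84.4 CPM against 21.5 and 20.6 CPM (2.23 ± 0.38, edgeR adjusted p = 0.00825), and GLT1, glutamate synthase, had 1.09 ± 0.28. LEU9 was called from 1 and 3 counts in Middle cells, and with no library left out. GCN4 itself was at 424 and 427 CPM against 362 and 168 CPM (0.72 ± 0.35, edgeR adjusted p = 0.240). ILV3 was called whichever library was left out and ARG3 in all such fits but that without Middle replicate 2. ILV5, ARG4 and LYS2 kept their call only without Aged replicate 1. GLT1 lost its call in each such fit and in the joint fit with Young cells. LYS9 and LYS4 lost theirs without Aged replicate 2, and LYS12 and LYS21 without Aged replicate 2 or Middle replicate 1. Without Aged replicate 2 no gene of the list was called lower and 2 were called higher, without Middle replicate 1 the counts were 3 and 3, and without Middle replicate 2 they were 5 and 1.

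**Figure D3:**
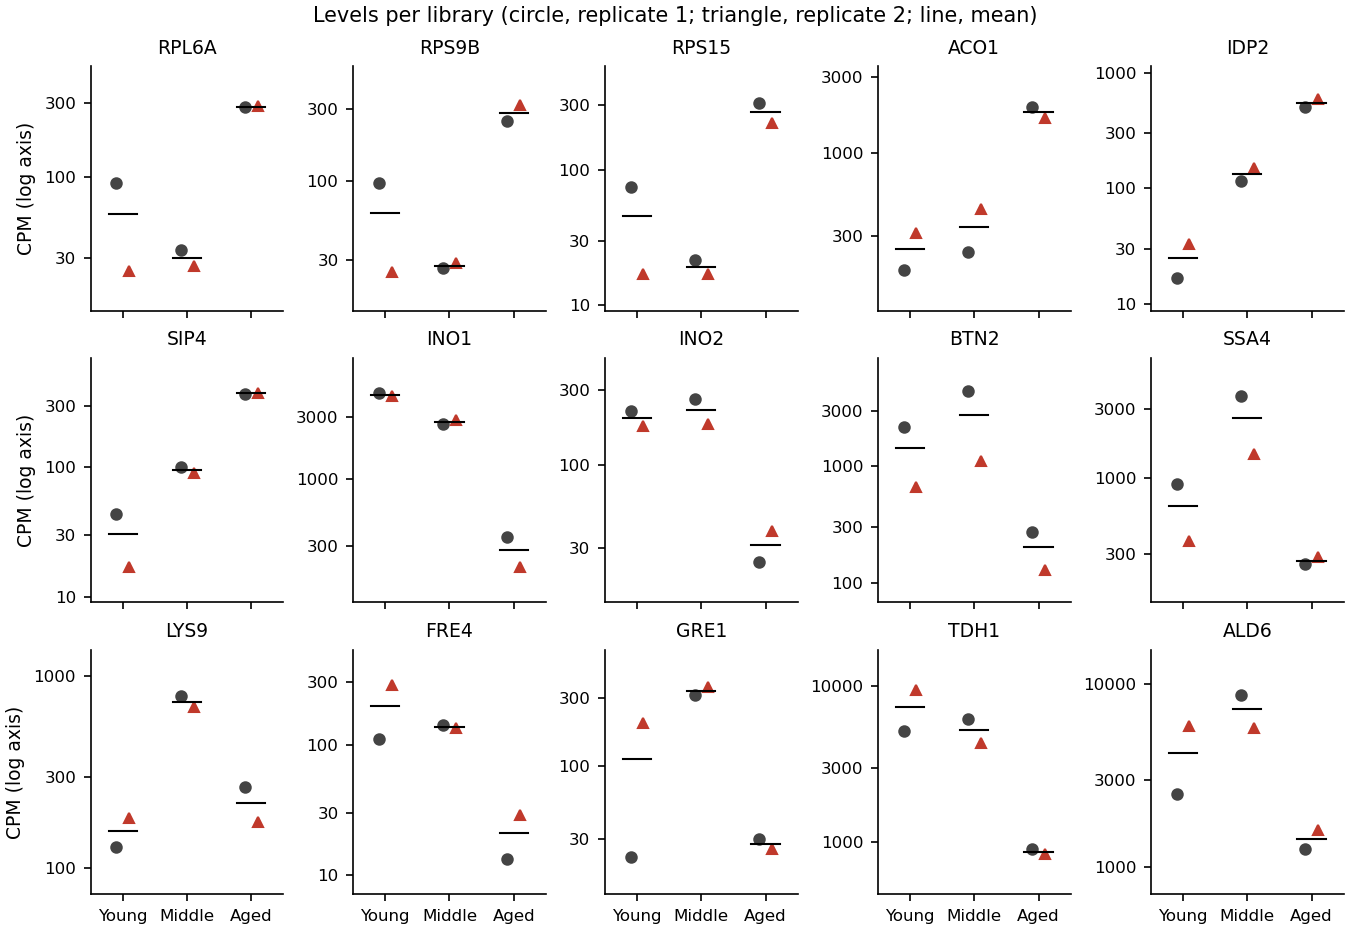
Level of 15 genes in each RNA library in CPM (log axis), by age, with replicate 1 as a circle, replicate 2 as a triangle and the mean as a line. The first 6 genes were higher in both Aged libraries than in both Middle ones, and the other 9 lower; INO2 was at 24.6 and 38.7 CPM in Aged and 265 and 182 CPM in Middle cells.

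In the iron regulon every called gene was lower. Of 27 tested genes of the iron regulon, 6 were called lower (3.0% of all tested genes were) and none higher, with a median of -0.65. FRE4, a ferric reductase, was at 13.3 and 28.6 CPM in Aged, 141 and 134 CPM in Middle and 111 and 287 CPM in Young cells (-2.58 ± 0.39, edgeR adjusted p = 0.00469). TIS11, which targets the RNA of iron-using proteins for decay, was at 39.8 and 12.7 CPM in Aged and 241 and 120 CPM in Middle cells (-2.93 ± 0.56, edgeR adjusted p = 0.0146). MRS4, an iron carrier of the mitochondrial inner membrane, was at 169 and 77.4 CPM against 560 and 441 CPM (-2.06 ± 0.37, edgeR adjusted p = 0.0108). FET4, a low-affinity iron transporter, was at 43.6 and 59.7 CPM in Aged, 222 and 174 CPM in Middle and 486 and 520 CPM in Young cells, and its 3 ages did not overlap (-1.88 ± 0.30, edgeR adjusted p = 0.00643). SIT1, which takes up ferrioxamine, and FET3, the copper oxidase of high-affinity uptake, fell as well (-1.50 ± 0.25 and -1.12 ± 0.28). FTR1, the permease that works with Fet3, was at 432 and 321 CPM against 520 and 459 CPM and was not called (-0.38 ± 0.27, edgeR adjusted p = 0.413). FET4 was called whichever library was left out, and without Aged replicate 2 it was one of 2 called genes of the list, while FET3 lost its call in each such fit. FRE4 lost its call without Middle replicate 2, and MRS4 without either replicate 2. TIS11 lost its own without Aged replicate 2 or Middle replicate 1, and SIT1 without Aged replicate 2.

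The Aft1 site TGCACCC occurred within 500 bases before 23 of 29 listed genes (79.3%) and 2.32% of all promoters searched, and before 5 of the 6 called genes. The list was drawn up as the iron regulon, so this share is set by the choice of list and is no result about Aged cells. It is shown in capitals, or as its complement GGGTGCA, at the match nearest to the start codon of 4 of them.
FRE4, chrXIV:739506-739528, plus strand: taaaaattTGCACCCtatttaac
TIS11, chrXII:416817-416839, minus strand: atgcagttGGGTGCAttgtgcca
SIT1, chrV:27461-27483, plus strand: acatttgaGGGTGCAatctggtt
FET3, chrXIII:388563-388585, plus strand: ttcaaaagTGCACCCatttgcag
MRS4 had no exact match in its window.

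Stress genes outside the chaperones fell in part. GRE1, a hydrophilin made under osmotic stress and drying, had the lowest p of the genes called lower and was at 30.3 and 25.4 CPM in Aged and 317 and 361 CPM in Middle cells, with 22.5 and 199 CPM in Young cells (-3.63 ± 0.28, edgeR adjusted p = 0.00133). Of 36 genes of the Msn2 and Msn4 response, 7 were called lower (3.0% of all tested genes were) and none higher, with a median of -0.40. SPG1, a protein of stationary phase, was at 11.4 and 9.52 CPM in Aged, 148 and 107 CPM in Middle and 9.0 and 16.5 CPM in Young cells (-3.61 ± 0.40, edgeR adjusted p = 0.00168). SPI1, a wall protein that rises as growth slows, was at 92.8 and 121 CPM in Aged, 997 and 528 CPM in Middle and 210 and 414 CPM in Young cells (-2.81 ± 0.36, edgeR adjusted p = 0.00256). These 3 genes were called whichever library was left out, and Middle cells had the highest levels of each. Other hallmark genes of the response did not move in this way. HSP12, a membrane-stabilising protein, was at 2351 and 2807 CPM against 2549 and 2938 CPM, so its ages overlapped (-0.08 ± 0.33), and the sign of this value turns with scaling by library totals. CTT1, cytosolic catalase, was at 1457 and 1675 CPM against 3076 and 2418 CPM (-0.81 ± 0.33, edgeR adjusted p = 0.173). The superoxide dismutases SOD1 and SOD2 had -0.24 ± 0.28 and -0.38 ± 0.25 and were not called.

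Among 26 genes of glycolysis and fermentation, 4 were called lower (3.0% of all tested genes were) and none higher, with a median of -0.49. This median rests on single libraries: it was 0.17 without Middle replicate 1 and -1.12 without Middle replicate 2, each with 2 calls, and -0.11 with no call without Aged replicate 2. TDH1, the glyceraldehyde-3-phosphate dehydrogenase made as growth slows, was at 904 and 842 CPM in Aged, 6194 and 4363 CPM in Middle and 5172 and 9489 CPM in Young cells (-2.59 ± 0.38, edgeR adjusted p = 0.0041). TDH3, its most abundant paralog in growing cells, was at 3541 and 2040 CPM against 4761 and 1349 CPM and its ages overlapped (-0.13 ± 0.57). ALD6, which turns acetaldehyde into acetate in the cytosol, was at 1250 and 1586 CPM in Aged, 8786 and 5799 CPM in Middle and 2494 and 5951 CPM in Young cells (-2.36 ± 0.41, edgeR adjusted p = 0.00917). TDH1 and ALD6 were among the 5 largest losses in CPM of all genes, and both lost their call without Aged replicate 2. ALD3 and ALD2, neighbouring genes of related aldehyde dehydrogenases, fell too (-1.49 ± 0.27 and -1.23 ± 0.25) and were called in 1 of the 4 fits with a library left out. Of 15 tested genes of hexose transport and its glucose-sensing regulators none was called (median -0.48), but 4 were called lower without Aged replicate 1 (median -0.97). HXT7, a high-affinity carrier, was at 578 and 183 CPM in Aged and 2797 and 669 CPM in Middle cells (-2.19 ± 0.71, edgeR adjusted p = 0.0962), and HXT6, nearly identical to it, may share its reads.

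Phosphate, NAD and sulfur genes held a few calls each, where 3.0% of all tested genes were called lower and 4.76% higher. SPL2, which curbs low-affinity phosphate uptake, was at 5.68 and 10.2 CPM in Aged, 97.8 and 57.6 CPM in Middle and 10.1 and 12.1 CPM in Young cells (-3.11 ± 0.51, edgeR adjusted p = 0.00749). PHO89, a sodium-phosphate carrier, was at 125 and 248 CPM in Aged, 775 and 1023 CPM in Middle and 164 and 354 CPM in Young cells (-2.24 ± 0.36, edgeR adjusted p = 0.00677). Both stood high in Middle cells alone. The level of SPL2 in Aged replicate 1 was near 5.59 CPM, to which 3 counts correspond in that library. VTC3, which makes polyphosphate, was also lower (-1.04 ± 0.24) and PHO11, a secreted phosphatase whose near-identical copy is PHO12, was higher (2.01 ± 0.48), so that 3 of 19 tested phosphate genes were called lower and 1 higher. PHO84, the high-affinity phosphate carrier, was at 66.3 and 90.1 CPM against 131 and 107 CPM (-0.56 ± 0.30, edgeR adjusted p = 0.281). In NAD synthesis, 4 of 14 genes were called lower and 1 higher. NMA1, which joins the NAD precursor to AMP, was at 94.7 and 93.3 CPM against 374 and 294 CPM (-1.82 ± 0.25, edgeR adjusted p = 0.00338). BNA2 and BNA5 of the pathway from tryptophan fell (-1.53 ± 0.35 and -1.27 ± 0.25), and BNA4 of the same pathway rose (1.43 ± 0.31). SUL2, a sulfate permease, was at 30.3 and 30.5 CPM against 119 and 111 CPM (-1.91 ± 0.32, edgeR adjusted p = 0.00834). NMA1 and SPL2 lost their call without Aged replicate 2, PHO89 without Middle replicate 2 and SUL2, BNA2, BNA4 and BNA5 in all such fits but that without Aged replicate 1. VTC3 and PHO11 were called in none of them.

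Most cell wall and division genes were not called. Of 35 wall genes, 4 were called higher and 2 lower (4.76 and 3.0% of all tested genes were), with a median of 0.15. FKS1, the catalytic subunit of glucan synthase, was at 726 and 904 CPM in Aged, 353 and 345 CPM in Middle and 1046 and 843 CPM in Young cells (1.23 ± 0.27, edgeR adjusted p = 0.0263). GAS1, which elongates glucan chains, was at 290 and 375 CPM against 138 and 124 CPM (1.36 ± 0.25, edgeR adjusted p = 0.0126). CHS1, the chitin synthase that mends the wall at cell separation, went the other way, from 1187 and 1293 CPM to 364 and 368 CPM (-1.76 ± 0.28, edgeR adjusted p = 0.00606). CCW12, an abundant wall mannoprotein, was at 964 and 491 CPM against 1595 and 665 CPM (-0.63 ± 0.47, edgeR adjusted p = 0.441). FKS1 and GAS1 kept their call only without Aged replicate 1, and CHS1 lost its own without Aged replicate 2. Of 37 genes of mitosis and cytokinesis, 4 were called higher (4.76% of all tested genes were) and none lower, with a median of 0.34. MYO1, the myosin of the contractile ring, was at 127 and 202 CPM in Aged, 35.8 and 42.7 CPM in Middle and 337 and 234 CPM in Young cells (2.06 ± 0.34, edgeR adjusted p = 0.00749). IQG1, a scaffold of that ring, was at 188 and 176 CPM against 57.2 and 74.0 CPM (1.44 ± 0.28, edgeR adjusted p = 0.0144), and CDC5, the polo kinase, had 1.77 ± 0.40. None of the 4 was called without Aged replicate 2 or without Middle replicate 2.

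Of the 8 daughter markers, 2 were called, both higher (4.76% of all tested genes were called higher and 3.0% lower). AMN1, which resets the exit from mitosis in daughters, was at 116 and 107 CPM in Aged, 14.3 and 27.0 CPM in Middle and 36 and 19.1 CPM in Young cells (2.31 ± 0.38, edgeR adjusted p = 0.00749). DSE4, a glucanase that frees the daughter from its mother, was at 155 and 230 CPM in Aged and 78.7 and 48.4 CPM in Middle cells (1.69 ± 0.34, edgeR adjusted p = 0.0195). Over the 8 markers log2 fold changes ran from -0.03 to 2.31 with a median of 1.01. Young cells, mostly daughters by their preparation, were below Aged cells in the sum of these markers, at 910.8 and 404.8 CPM. SMC3, a subunit of cohesin, fell from 315 and 213 CPM to 39.8 and 62.2 CPM (-2.29 ± 0.33, edgeR adjusted p = 0.00356), the only one called of 36 G1 and S phase genes. AMN1 lost its call without Aged replicate 2, DSE4 without either replicate 2, and SMC3 in no such fit.

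**Figure D4:**
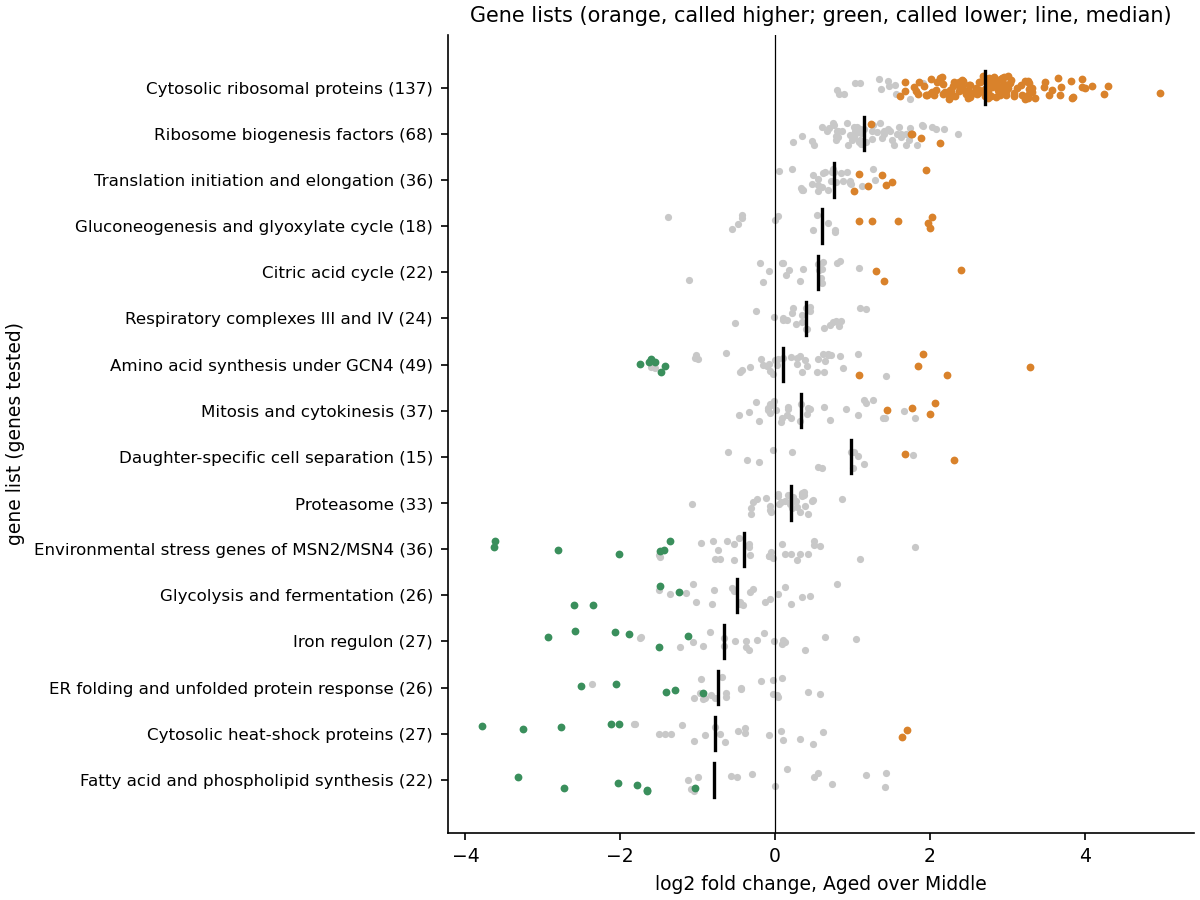
Log2 fold change of RNA, Aged over Middle, of the tested members of 16 gene lists (number tested in brackets), 1 point per gene, with the median as a line. Orange points were called higher, green lower and grey not called; ribosomal proteins had a median of 2.71 and the last 4 lists medians between -0.79 and -0.65.

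Further lists held up to 3 calls, where 4.76% of all tested genes were called higher and 3.0% lower. ERG4, ERG7 and ERG28 were called higher of 26 ergosterol genes, whose median was -0.02. ERG4, the last step of the pathway, was at 239 and 164 CPM in Aged and 69.1 and 69.7 CPM in Middle cells (1.53 ± 0.29, edgeR adjusted p = 0.0150). ATG5, needed to attach Atg8 to the autophagosome membrane, fell from 360 and 239 CPM to 47.4 and 66.0 CPM (-2.34 ± 0.31, edgeR adjusted p = 0.00288), whichever library was left out, and ATG3 fell too (-1.17 ± 0.26), while 19 other autophagy genes were not called. In purine synthesis, 2 of 20 genes were called higher and none lower. SHM2, which makes one-carbon units from serine, was at 426 and 354 CPM against 155 and 131 CPM (1.46 ± 0.25, edgeR adjusted p = 0.00864), and IMD3, an IMP dehydrogenase, had 1.15 ± 0.26. In peroxisomal fatty acid oxidation, 2 of 16 were called lower and none higher: ECI1, an enoyl-CoA isomerase, at 15.2 and 31.1 CPM against 95.4 and 85.4 CPM (-1.85 ± 0.41, edgeR adjusted p = 0.0278), and FOX2 (-1.18 ± 0.30). In the zinc regulon, FET4 and ADH4, an alcohol dehydrogenase (-1.41 ± 0.33), were called lower of 14. SHM2 lost its call without Middle replicate 2, ECI1, ADH4 and IMD3 without any one library but Aged replicate 1, and FOX2 in each such fit. PDR15, a multidrug transporter, was at 371 and 289 CPM against 2017 and 1303 CPM (-2.33 ± 0.35, edgeR adjusted p = 0.00455). MEP3, an ammonium permease, was at 100 and 153 CPM against 52.5 and 47.7 CPM (1.38 ± 0.33, edgeR adjusted p = 0.0396), while MEP1 had 0.05 ± 0.24. ERG4 lost its call without either Middle library, PDR15 without Aged replicate 2, and ATG3, MEP3 and ERG7 in all such fits but that without Aged replicate 1. No gene was called in either direction among 33 of the proteasome (median 0.21), 31 of TOR and PKA signalling (-0.07), 17 of silencing and telomeres (-0.05) or 19 of trehalose and glycogen (-0.0049). The plasma membrane proton pump PMA1 was at 1686 and 1861 CPM in Aged, 1242 and 563 CPM in Middle and 4258 and 2833 CPM in Young cells (0.98 ± 0.40, edgeR adjusted p = 0.173).

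Footprints gave a second reading of the same step, with 1 Aged library and therefore no test. Their counts summed to 965156 in Aged and to 168247 and 435946 in Middle replicates 1 and 2. The median per gene was 30 counts in Aged and 5 and 17 in Middle cells, so many genes had few footprints in Middle replicate 1. The footprint and RNA libraries came from the same lysates, so they share the cells and any difference between cultures. Of 226 genes called higher in RNA that had footprint values, 224 had a positive footprint log2 fold change, and all 163 called lower had a negative one. Medians were 2.25 and -1.58 for these genes and -0.03 for all. Across 4366 genes Pearson's r between RNA and footprint fold changes was 0.79, and 0.72 over 4230 genes without ribosomal proteins, which are not independent replicates. For ribosomal proteins the median footprint value was 2.73, positive in 136 of 136 genes. INO1 had -3.06, INO2 -2.93, SSA4 -3.62, KAR2 -2.19, ACO1 2.95 and PET9 2.27 in footprints. Over 50 ribosome biogenesis factors with both readouts, 34 had positive footprint values, and the median was 0.29 beside 1.14 in RNA. The RNA median of the list was 0.39 without Aged replicate 2 and 1.6 without Aged replicate 1, and the label of the Aged footprint library does not say which RNA library it goes with. HAC1 had -2.30 in footprints beside 0.42 in RNA, and DUR12, an enzyme of urea use, -1.54 beside 1.17 ± 0.25. The difference between the readouts was not tested.

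**Figure D5:**
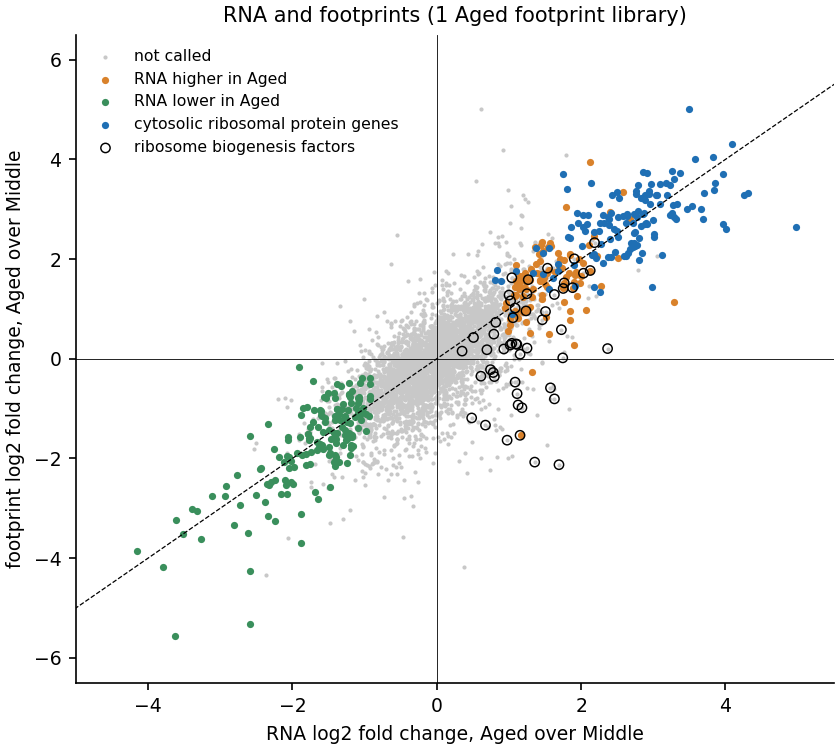
Log2 fold change of footprints against that of RNA, Aged over Middle, 1 point per gene, with the dashed line where both are equal. Genes called in RNA and ribosomal proteins lie near the line in the outer quadrants, and ribosome biogenesis factors (open circles) spread below it; footprints rest on 1 Aged library.

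By position along the chromosomes, median log2 fold changes of 16 chromosomes lay between -0.06 and 0.13. The 250 tested genes within 30 kb of a chromosome end had a median of -0.22, with 5 called higher and 10 lower (2.0 and 4.0%). The 5089 farther genes had 0.03, with 246 and 157 calls (4.8 and 3.1%). Over all tested genes the shares were 4.76 and 3.0%. Ty elements, the retrotransposons of yeast, were read with the copies of each family summed, since near-identical copies share reads, and no family was called. Ty1 gag-pol was at 6430 and 4891 CPM in Aged and 2918 and 2420 CPM in Middle cells (1.09 ± 0.37, edgeR adjusted p = 0.114). Ty2 gag-pol was at 17969 and 24023 CPM against 40462 and 34997 CPM (-0.84 ± 0.49, edgeR adjusted p = 0.323), and Ty3 gag-pol had -1.58 ± 0.48 (edgeR adjusted p = 0.0887). Among single rows of the tables, 11 Ty copies and 19 open reading frames not matched in the reference were in the count of higher genes. One of these, YGL102C, at 476 and 470 CPM against 64.4 and 49.8 CPM, neighbours RPL28 by its systematic name, and reads of the pair cannot be told apart without knowing whether strand was used. The same holds for other reading frames called higher that neighbour a called ribosomal protein gene by name, such as YPL142C (RPL33A), YPR044C (RPL43A), YLR062C (RPL22A) and YDR417C (RPL12B).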

How the data were processed

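The authors trimmed reads with Fastp, removed reads on non-coding RNA, aligned the rest with STAR 2.7.0a (build sacCer3, which is R64 of S288C), and deposited raw counts per coding sequence, without normalization. RNA reads were placed with an offset of 15 nt, and the first and last 5 codons were left out. A second deposited column, as other value, is the length in codons. The annotation version, use of strand and treatment of reads with several places are not given in the sources used here. The sources call the Young and the Middle libraries biological replicates. They do not say so of the Aged ones, nor state separate cultures, so p-values measure only the spread between these samples.

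Counts were analysed in R 4.3.3 with edgeR 4.0.16 (filterByExpr, TMM, glmQLFit and glmQLFTest, two-sided, 2 against 2 libraries, no covariate, Benjamini-Hochberg threshold 0.05) and, as an alternative, DESeq2 1.42.0. Footprint values are edgeR fold changes without a test. In simulated data for this comparison (5583 genes), 76 of 99 genes changed by 2 on the log2 scale and 17 of 100 changed by 1 were called, with 5 false calls. Gene symbols, coordinates and sequences are from RefSeq R64, which matched 5986 of 6668 rows. It was not used for a test. Promoters are the 500 bases before a start codon.

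The comparison, the 47 gene lists and the motifs were chosen with earlier results of these data known. Named genes were drawn from the 12 with the smallest p in each direction, the 5 with the largest fold and at least 50 counts on average, and the 5 largest gains and losses of CPM. They were also drawn from up to 4 called and 3 uncalled genes per list, every member of lists of up to 20, and genes that the study's text discusses. Not all of these are named. Some members of longer lists and neighbours of named genes in a pathway were added after their values were seen. Alternatives were other scalings, filters and tools, a joint fit with Young cells, a replicate block, sums over paralogs or over copies of a Ty family, and fits without 1 library each. The footprints of Young cells were not used.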

Additional observations from a re-analysis of the deposited data

How the results depend on the processing

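The main counts were 270 genes higher and 170 lower. Scaling by size factors or by totals, TMM that leaves ribosomal proteins aside, no filter, a minimum of 10 counts in every library, a joint fit with Young cells and DESeq2 gave 231 to 307 higher and 144 to 219 lower. With the replicate number as a block, 784 genes were higher and 634 lower, and all 270 and 170 genes were among them. Same-numbered Aged and Middle libraries deviated together (r = 0.37 over 5093 genes), but with 2 pairs and no label of a shared culture the numbers do not pair the samples. With 1 library left out, 97 to 323 genes were higher and 23 to 215 lower, the lone library being assumed to vary like the others. The fewest higher genes came without Middle replicate 2 and the fewest lower genes without Aged replicate 2, the deeper library of each age. Scaling by library totals moved the median of all genes from 0.01 to 0.09. Of the cytosolic heat-shock genes, 5 were lower in the main test and 11 with DESeq2. The single genes whose value reversed were not called in the main test. FAS1 had -0.0019 with size factors and -0.0563 to 0.0577 with 1 library left out. HSP12 had 0.0061 with library totals and -0.2014 to 0.0251 with 1 library left out. TDH3 had 0.0276 with library totals, 0.0909 with the replicate block and -0.77 to 1.05 with 1 library left out. Such fits ranged from -0.995 to 0.0049 for CAT8, from -0.0703 to 0.18 for MEP1 and from -1.197 to 0.13 for CCW12. Medians of lists turned sign too: that of glycolysis and fermentation (-0.49) was 0.17 without Middle replicate 1, and that of the Gcn4 list (0.10) was -0.10 without Middle replicate 2. With library totals, those of ergosterol (-0.02), signalling (-0.07), silencing (-0.05) and trehalose genes (-0.0049) were 0.06, 0.03, 0.03 and 0.08.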

Other observations

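Some called genes lie outside the lists and were picked out after their values were seen. NRD1 and HRP1, RNA-binding proteins of transcription termination and 3′ end formation, rose together. NRD1 was at 760 and 405 CPM in Aged, 95.4 and 98.2 CPM in Middle and 76.5 and 51.7 CPM in Young cells (log2 fold change 2.58 ± 0.34, edgeR adjusted p = 0.0029), and HRP1 at 690 and 383 CPM in Aged, 62 and 99.6 CPM in Middle and 161 and 147 CPM in Young cells (2.68 ± 0.36, edgeR adjusted p = 0.00311). HRP1 was called whichever library was left out and NRD1 was not without Middle replicate 2. Of 37 enzymes that charge tRNA, taken from the product names of the reference, 5 were called higher and none lower. Of all tested genes, 4.76% were called higher. The median of these enzymes was 0.62. YHR020W, which charges proline tRNA, was at 227 and 215 CPM against 52.5 and 64 CPM (1.90 ± 0.27, edgeR adjusted p = 0.0034).

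CTR3 and MAC1, which serve copper uptake, were called lower. CTR3, a high-affinity copper transporter, was at 3.79 and 5.71 CPM in Aged, 52.5 and 56.9 CPM in Middle and 29.2 and 77.8 CPM in Young cells (-3.39 ± 0.51, edgeR adjusted p = 0.00476), and MAC1, its activator, at 73.9 and 67.3 CPM against 157 and 164 CPM (-1.19 ± 0.27, edgeR adjusted p = 0.0309). Each lost its call without either replicate 2, and MAC1 also without Middle replicate 1, with library totals, in the joint fit with Young cells and with DESeq2. The level of CTR3 in Aged replicate 1 lay below 5.59 CPM, to which 3 counts correspond in that library. Among further phospholipid genes, CDS1 and EPT1 fell (-1.55 ± 0.34 and -1.72 ± 0.41) and lost their call without either replicate 2, EPT1 also without Middle replicate 1. SUC2, the secreted invertase, fell from 2458 and 1251 CPM to 421 and 263 CPM, with 261 and 658 CPM in Young cells (-2.44 ± 0.42, edgeR adjusted p = 0.00929), and lost its call without Aged replicate 2.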
